A study of Mus musculus with 60 samples.

Results

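The genes described here are 6 textbook targets of the estrogen receptor, Greb1, Ccnd1, Myc, Ctsd, Cxcl12 and Stc2, as measured in the mammary glands of ovariectomized mice. They were chosen by name, and a probe set was taken when the platform annotation gave it exactly 1 symbol and that symbol was one of the 6. This gave 12 probe sets of the 29131 with 1 symbol, for 6 of 15964 genes, and 11 of the 12 were bright enough to be tested among the 23062 probe sets tested in all. Ccnd1 had 3 probe sets, Cxcl12 had 4, Stc2 had 2, and Greb1, Myc and Ctsd had 1 each. The single Greb1 probe set was dim and is given without a place in the main test. Where a gene had several, the brightest on array type A is described first.

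All 20 mice had been ovariectomized and were injected into the peritoneum once a day for 4 days. The treated glands came from 4 mice given 2 µg of 17-beta-estrogen (E), 4 given 1 mg of progesterone (P) and 5 given both hormones (E+P). A further 3 mice given both hormones supplied fat pads free of epithelium (E+P CFP), and 4 mice given 100 µl of sesame oil were the vehicle group (V). Total RNA was hybridised to 3 Affymetrix array types, A, B and C of the murine genome set, 60 arrays in all. Arrays of the 3 types with the same group and replicate number were taken as 1 animal, which the labels do not state. The sources used here give neither strain nor age, and lymph nodes had been taken out at collection. Signals are linear intensities of 1 probe set, so they are compared between animals and not between genes.

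Estrogen enters cells, binds its receptor in the nucleus, and the receptor then binds DNA at estrogen response elements or is brought to promoters by other factors such as AP-1 and SP1. The 6 genes are known as targets mostly from human breast cancer cell lines. In the mouse mammary gland the receptor is present in a subset of luminal epithelial cells and in stromal cells, and much of the proliferation that follows hormone is carried by neighbouring cells through secreted signals. MYC is a transcription factor that drives growth, cyclin D1 (Ccnd1) activates CDK4 and CDK6 to start the cell cycle, and GREB1 is a cofactor of the receptor. Stanniocalcin 2 (Stc2) is a secreted glycoprotein that inhibits the protease PAPP-A, CXCL12 is a chemokine that signals through CXCR4 and ACKR3, and cathepsin D (Ctsd) is a lysosomal aspartyl protease.

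Of the 6 genes, only Stc2, on the brighter of 2 probe sets, had signals in E glands that stood apart from every other animal. On the dimmer one, E glands had the lowest mean log2 signal of the 5 groups. The share of all probe sets with E glands apart from every other animal was not counted. None of the 6 genes passed the test in the comparison of E with V. On the brighter of its 2 probe sets, Stc2 fell in E+P glands relative to E glands, the only call among the members in 7 hormone comparisons of intact glands. Ccnd1 and Stc2, each on 1 probe set, and Myc were higher in intact glands given both hormones than in epithelium-free fat pads given the same. Tests were made with limma on log2 signals over all probe sets, with Benjamini-Hochberg adjustment and a threshold of 0.05.

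The libraries differed in ways that touch these results. The ratio of 3′ to 5′ signal of the Gapdh control, a sign of RNA quality that rises as RNA is degraded, averaged 2.22 ± 0.51 in E+P glands (SD, n = 5), 1.49 ± 0.21 in E glands (n = 4), 2.05 ± 0.50 in P glands (n = 4), 2.59 ± 1.61 in E+P CFP pads (n = 3) and 2.52 ± 0.79 in V glands (n = 4). The first E+P CFP pad had the highest ratio, 4.39, and the fourth V gland the next, 3.69. Summed signal of 8 skeletal muscle markers was 4220 in the first E gland, against 537 to 1296 in the other 3 E glands. Calls that end without these 3 animals are given with and without them. All E glands, with Gapdh ratios of 1.24 to 1.72, lay below all V glands, at 1.97 to 3.69. RNA quality and treatment therefore cannot be told apart in E minus V, for any gene. E+P minus E was nearly as uneven: E+P glands had ratios of 1.49 to 2.76, and only the fourth, at 1.49, lay within the E range. The part of RNA quality in E+P minus E was not tested. Because the RNA came from whole tissue, fewer cells of a type and less RNA per cell cannot be told apart.

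Members past the limma threshold were counted against all probe sets. In E minus V, 0 of the 11 tested probe sets passed, where 0.178% of all 23062 did, and 1 of 11 had an unadjusted p under 0.05, against 12.1% of all. In P minus V, 0 passed, where 0% of all did, and 0 of 11 had an unadjusted p under 0.05, against 8.05% of all. In E+P minus V, 0 passed, where 0.46% of all did, and 3 of 11 had an unadjusted p under 0.05, against 10.7% of all. The counts were also 0 in E+P minus P, with 0.351% of all probe sets called, in the estrogen main effect (the mean of E minus V and E+P minus P), with 0.811%, and in the interaction (E+P minus P less E minus V), with 0.0737%. An unadjusted p under 0.05 was found for 3 of 11 in E+P minus P, against 11.4% of all, for 3 of 11 in the estrogen main effect, against 11.9%, and for 1 of 11 in the interaction, against 11.7%. In E+P minus E, 1 of 11 passed and was lower, where 0.143% of all passed and 0.0694% were lower. Of the 77 values in the 7 comparisons, 61 were under 0.5 in size on the log2 scale, and 14 had a 95% interval that left out 0. The median log2 difference of the 11 probe sets in E minus V was -0.15, beside 0.00082 over all probe sets, with 2 positive and 9 negative. The 9 negative values include all 4 probe sets of Cxcl12 and all 3 of Ccnd1, so they do not stand for 9 genes. On the probe set described first, the difference was -0.047 for Ccnd1, 0.62 for Myc, -0.19 for Ctsd, -0.18 for Cxcl12 and 1.28 for Stc2. These comparisons share animals: E minus V, P minus V and E+P minus V use the same 4 V glands, and E minus V and E+P minus E the same 4 E glands.

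**Figure D1:**
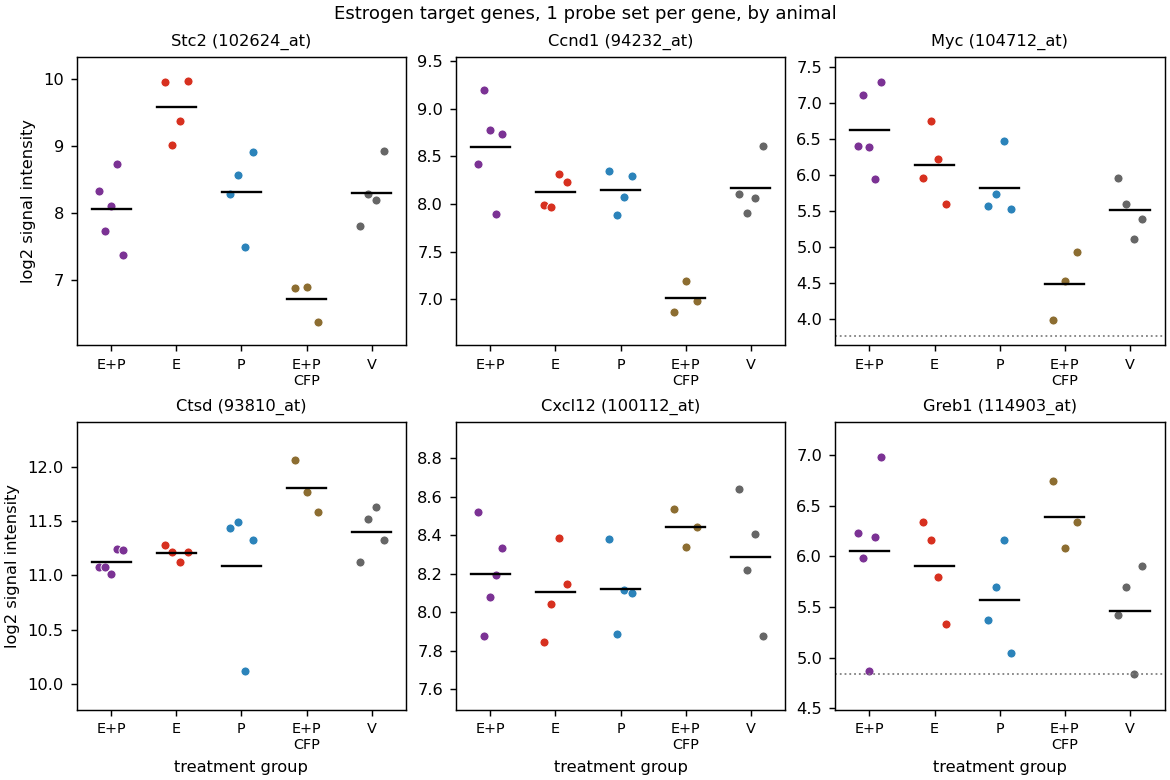
Each point is 1 animal's log2 signal intensity (vertical axis, own range per panel) in the groups E+P, E, P, E+P CFP and V (horizontal axis), for 1 probe set of each gene. Bars are group means of log2 signals and the dotted line, where in range, is the floor. All 4 E glands lie above the other 16 animals for Stc2, and the 3 E+P CFP pads lie below the other 17 for Stc2, Ccnd1 and Myc. The share of all probe sets with such separations was not counted.

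Myc had 83.9, 137.1, 83.8, 61.1 and 155.5 units of signal in E+P glands and 62.0, 107.4, 74.4 and 48.3 units in E glands. It had 47.2, 53.2, 88.2 and 45.8 units in P glands and 62.1, 48.3, 34.4 and 41.9 units in V glands. The highest Myc signals were in E+P glands and the group means ran from high to low in the order E+P, E, P and V, but each group overlapped the next. The log2 difference was 1.11 ± 0.31 (SE) in E+P minus V, a fold of 2.15 with a 95% interval from 1.37 to 3.39, and its adjusted p in limma was 0.138. In E minus V it was 0.62 ± 0.33, with an adjusted p of 0.477, and over both estrogen contrasts it was 0.71 ± 0.23, with an adjusted p of 0.179. The intervals of E+P minus V and of the estrogen main effect leave out 0, but neither comparison passed over all probe sets. These sizes depend on how low signals are treated: with an offset of 50 units in place of the floor, E+P minus V was 0.64, E minus V was 0.33 and the estrogen main effect was 0.41. The interaction was 0.18 ± 0.45 (adjusted p 0.923), with an interval from -0.76 to 1.13. Summed signal of mitosis markers was 819 to 2073 units in E+P glands and 587 to 1156 units in E glands. It was 508 to 716 units in P glands and 366 to 626 units in V glands. Of 7 mitosis markers tested, 4 were higher in E+P minus V and 4 in the estrogen main effect. Of 9 luminal epithelial markers tested, 0 passed in E+P minus V and 3 were higher in the estrogen main effect. The part of these markers in the Myc and Ccnd1 differences was not tested.

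Other genes of the MYC network (partners such as Max and Mnt, and targets in nucleotide and ribosome synthesis) were read from a list of 20, of which 18 were tested. In E minus V, P minus V, E+P minus V, E+P minus E and the interaction 0 of 18 passed. In E+P minus P and in the estrogen main effect 1 of 18 passed, and it was Mycl, a paralog of Myc. Mycl ranged over 101 to 155 units with a median of 137 in E+P glands, against 20.3 to 71.3 units with a median of 42.0 in P glands, without overlap. Its medians were 185 in E glands and 131 in V glands. The log2 difference was 1.76 ± 0.32 in E+P minus P (limma adjusted p 0.0178) and 1.09 ± 0.23 as the estrogen main effect (adjusted p 0.0292), beside 0.42 ± 0.34 in E minus V (adjusted p 0.673). P glands were the low group for Mycl, at -1.77 ± 0.34 in P minus V with an adjusted p of 0.0903.

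Ccnd1 gave its brightest signal on 1 probe set of array type A. There it was at 341.8, 584.0, 436.9, 237.4 and 426.4 units in E+P glands, 254.2, 250.0, 317.1 and 300.1 units in E glands and 326.2, 235.8, 269.4 and 313.3 units in P glands. The V glands had 275.2, 239.5, 268.0 and 389.9 units. The E, P and V glands covered overlapping ranges, and 4 of 5 E+P glands lay above every E and P gland. The E minus V difference was -0.047 ± 0.21, with an interval from -0.48 to 0.39, so that a fold of 0.715 to 1.31 is within the error. E+P exceeded E by 0.48 ± 0.20 (limma adjusted p 0.405), P by 0.45 ± 0.20 (adjusted p 0.380) and V by 0.43 ± 0.20 (adjusted p 0.443). The 2 other Ccnd1 probe sets were dimmer and also below 0 in E minus V, at -0.15 and -0.055, and they correlated with the brightest at 0.49 and 0.37 over 20 animals. Of 19 genes of the cyclin D pathway (the kinases, inhibitors, pocket proteins and E2F factors), 13 were tested and 0 passed in any of the 7 hormone comparisons. Their median log2 difference was 0.13 in E minus V and 0.24 in E+P minus V, beside 0.00082 and 0.013 over all probe sets.

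Greb1 stayed near the lower end of the scale. Its probe set had 75.1, 63.1, 29.2, 73.0 and 126.3 units in E+P glands and 81.0, 71.4, 55.7 and 40.4 units in E glands. It had 41.5, 52.0, 71.4 and 32.9 units in P glands and 42.8, 51.8, 17.5 and 60.0 units in V glands. The groups overlapped, and 1 E+P gland and 1 E+P CFP pad alone exceeded the filter level of 85.7 units, which at least 3 animals had to exceed for a test. One V gland was below the floor of 28.6 units. In a fit with no filter on dim probe sets the log2 difference was 0.44 ± 0.38 in E minus V (limma adjusted p 0.764) and 0.46 ± 0.26 as the estrogen main effect (adjusted p 0.629). The interval of E minus V ran from -0.36 to 1.25 and so takes in both no change and a rise of over 2-fold.

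Stc2 is the member with a hormone call, and the window around its start is shown for the letters of the estrogen response element. Promoter windows of 300 bases were taken from RefSeq (GRCm38.p6) and are given in the gene's own direction, and 4 of the 6 genes matched, with 5 windows. The Stc2 window is chr11:31370012-31370311, minus strand, with half-sites of the estrogen response element in capitals.
Stc2: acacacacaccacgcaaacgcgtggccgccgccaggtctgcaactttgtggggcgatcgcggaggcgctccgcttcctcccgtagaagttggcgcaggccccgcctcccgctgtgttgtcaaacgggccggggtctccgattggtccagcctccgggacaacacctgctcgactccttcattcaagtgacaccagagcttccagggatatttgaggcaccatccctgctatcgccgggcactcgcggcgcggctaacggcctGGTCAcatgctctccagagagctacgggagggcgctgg
The full element, GGTCA, 3 free bases and TGACC, was in none of the 5 windows, and 0.070% of 32851 promoters in the table hold it. Its half-site GGTCA, read on both strands (TGACC on the other), occurred once in the Stc2 window, at bases 263 to 267 counted from 1 at the 5′ end of the window, and 40.5% of all promoters hold at least 1. The progesterone receptor half-site TGTTCT, read on both strands, was in none of the 5 windows, and 19.0% of all promoters hold it. The windows of Greb1, which has 2 starts in the table, held 2 and 1 estrogen half-sites and the Cxcl12 window held 0. A match describes letters only, and elements outside the windows were not looked for.

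Stc2 was read by 2 probe sets. With the brighter one, on array type A, the signal was 323.1, 212.1, 276.8, 428.3 and 166.5 units in E+P glands, 997.9, 520.0, 663.8 and 1011.7 units in E glands and 311.8, 379.9, 179.7 and 481.3 units in P glands. The V glands had 224.1, 312.0, 292.2 and 486.0 units. All 4 E glands, from 520.0 units upward, lay above the other 16 animals, of which the highest had 486.0 units. The share of all probe sets with E glands apart in this way was not counted. The E+P, P and V glands overlapped one another. The means were 281 ± 102 units in E+P glands (SD, n = 5), 798 ± 246 in E glands (n = 4), 338 ± 127 in P glands (n = 4) and 329 ± 111 in V glands (n = 4).

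E exceeded V for Stc2 by 1.28 ± 0.31 on the log2 scale, a fold of 2.43 (95% interval 1.55 to 3.83), and the groups did not overlap, as for 3.68% of all probe sets in that direction. The adjusted p in limma was 0.0975, so this difference did not pass over all probe sets. Without the fourth V gland, the highest of its group, it was 1.49 and passed, with an adjusted p of 0.0397. That was the only 1 of 20 fits leaving out 1 animal that passed, and the highest adjusted p was 0.240. With the fourth V gland, the first E gland and the first E+P CFP pad left out together, it was 1.37 (adjusted p 0.0830). E+P minus E was -1.53 ± 0.30, a 2.88-fold lower signal in E+P glands, with an adjusted p of 0.0392. The E+P and E glands did not overlap, as for 1.85% of all probe sets in that direction. P minus V was 0.011 ± 0.31 (adjusted p 0.994) and E+P minus V was -0.24 ± 0.30 (adjusted p 0.847). The estrogen main effect was 0.51 ± 0.22 (adjusted p 0.337). The interaction, which asks whether progesterone changed the response to estrogen, was -1.54 ± 0.43 with an adjusted p of 0.186.

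E+P minus E for Stc2 was close to the threshold. The call held in 8 of 20 fits that left out 1 animal, with adjusted p from 0.0166 to 0.129, and the log2 difference then ranged between -1.71 and -1.36. Leaving out E gland 1, 3 or 4, or E+P gland 1, 2, 3 or 5, ended the call. It also ended without P gland 1, E+P CFP pad 1 or 2, or V gland 2 or 3, which enter only through the pooled spread. Without the first E gland, the fourth V gland and the first E+P CFP pad together, the difference was -1.40 with an adjusted p of 0.130.

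The dimmer Stc2 probe set, on array type B, did not show the same pattern. It had 53.6, 113.4, 65.0, 121.7 and 64.3 units in E+P glands, 74.9, 33.3, 18.3 and 11.1 units in E glands and 16.3, 13.6, 151.0 and 14.1 units in P glands. The V glands had 72.4, 65.6, 87.6 and 28.7 units. Here E glands were mostly at the low end, and 2 of 4 E glands and 3 of 4 P glands were at or under the floor of 28.6 units. The log2 difference was -0.64 ± 0.54 in E minus V and 1.07 ± 0.51 in E+P minus E (limma adjusted p 0.492), both opposite in sign to those of the brighter probe set. Over 9 other settings the first ranged between -1.31 and -0.18, and the lowest value of the second was 0.37. The 2 probe sets correlated at -0.26 over 20 animals and at -0.53 over the 17 intact glands. For this, arrays of the same group and replicate number were taken as 1 animal. The direction of Stc2 therefore rests on 1 of 2 probe sets.

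**Figure D2:**
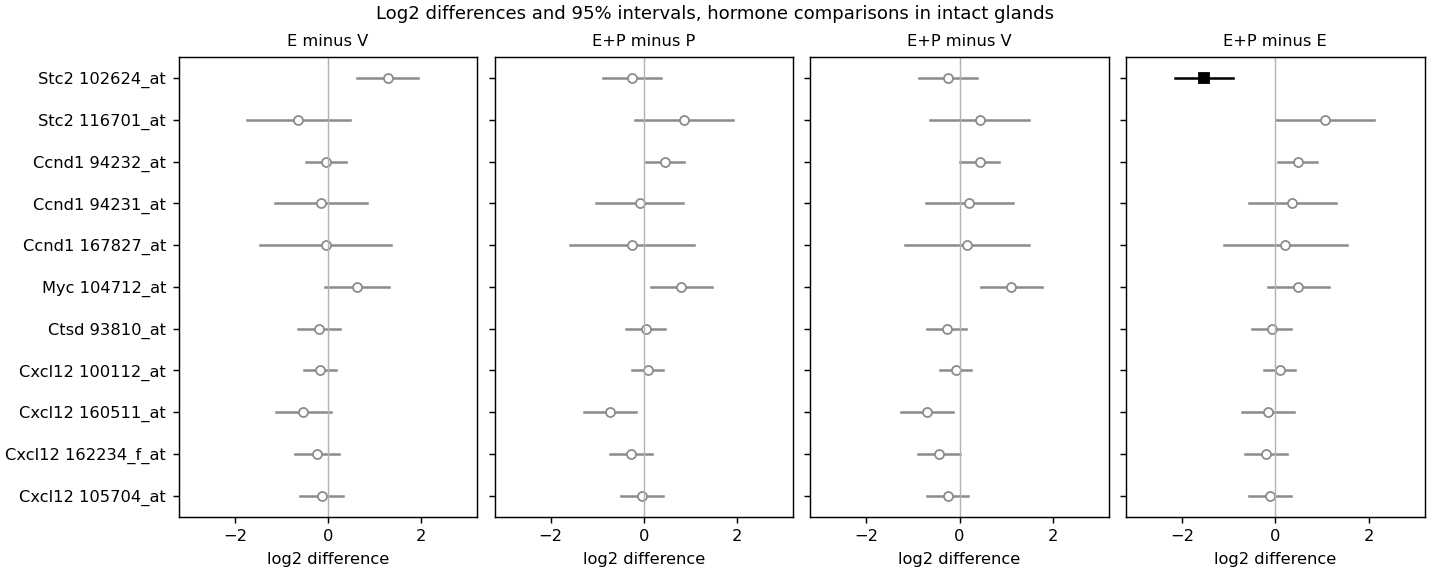
Log2 differences (horizontal axis) with 95% intervals for the 11 tested probe sets (rows) in E minus V, E+P minus P, E+P minus V and E+P minus E. Filled squares passed the threshold of 0.05 on the adjusted p and open circles did not. The 1 square is the brighter Stc2 probe set in E+P minus E, at -1.53, and the dimmer one lies on the other side of 0 in that panel.

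Marker levels of other cell types also differed between these groups. Summed signal of 10 lymphocyte and plasma cell markers on the arrays ranged over 355 to 1609 units in E+P glands, 1269 to 6292 units in E glands and 316 to 2131 units in V glands, with none of the 10 at the floor throughout a group. Of 9 tested, 0 passed in E minus V or in E+P minus E, with median log2 differences of 1.66 and -1.45. Of 5 brown adipocyte markers, 2 were lower in E than in V and 1 was higher in E+P than in E. Of 8 endothelial markers, 1 was lower in E than in V, with a median of -0.62, and 0 differed between E+P and E. Of 9 luminal epithelial markers, 1 was higher in E than in V, and 0 differed between E+P and E. Their part in the Stc2 result was not tested. Of the 4 genes of the stanniocalcin axis, 2 were tested and 0 passed in any of the 9 comparisons; Pappa, the protease that STC2 inhibits and named here for that role, was at 0.077 ± 0.56 in E minus V (limma adjusted p 0.975).

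Cxcl12 had lower mean log2 signals in E and in E+P glands than in V glands on 4 of 4 probe sets, and 0 of the 4 passed. Its first probe set had 234.8 to 367.2 units in E+P glands with a median of 292.6, 230.0 to 334.3 units in E glands with a median of 273.8, 237.2 to 333.3 units in P glands with a median of 276.0, and 235.3 to 399.1 units in V glands with a median of 318.6. The 4 groups covered nearly the same range. A second probe set had 251.6, 150.2, 253.6, 194.8 and 162.7 units in E+P glands, 171.8, 381.4, 217.2 and 168.9 units in E glands and 386.4, 206.7, 446.0 and 326.6 units in P glands. The V glands had 413.5, 334.2, 332.3 and 229.3 units. Both estrogen-treated groups had lower means here than P and V glands, but 1 P gland and 1 V gland lay within the range of the E+P glands. The E glands at 381.4 and 217.2 units lay within the range of the P glands. Its estrogen main effect was -0.63 ± 0.19, a 1.55-fold lower signal, with a limma adjusted p of 0.158. The main effects of the other 3 probe sets lay between -0.26 and -0.051. Correlations among the 4 probe sets over 20 animals ran from -0.0070 to 0.51. One of them carries a suffix for probes that may also match related sequences. Of the CXCL12 receptors and the protease Dpp4, 2 of 3 were tested, Cxcr4 not among them, and 0 passed in any of the 9 comparisons. Ackr3, a CXCL12 receptor and named here for that role, was at 0.060 ± 0.41 in E minus V (adjusted p 0.971).

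**Figure D3:**
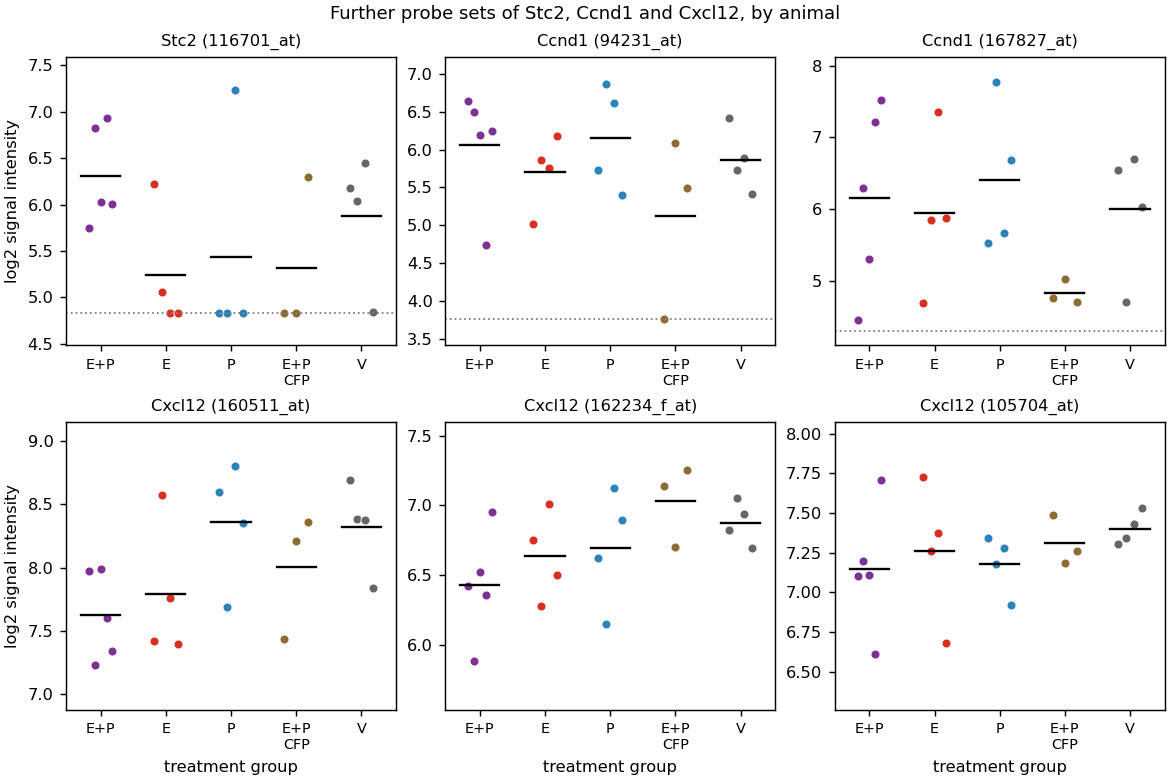
Each point is 1 animal's log2 signal intensity (vertical axis, own range per panel) in the groups E+P, E, P, E+P CFP and V (horizontal axis), for the further probe sets of Stc2, Ccnd1 and Cxcl12. Bars are group means of log2 signals and the dotted line, where in range, is the floor. The dimmer Stc2 probe set is at the floor in 2 of 4 E glands, and the second Cxcl12 probe set has its lowest mean in E+P glands.

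Ctsd, like Stc2, is shown with its promoter window, since GC boxes and half-sites near the start are the kind of element through which the human gene was described as estrogen-responsive. The window is chr7:142387778-142388077, minus strand, in the gene's direction, with estrogen half-sites in capitals.
Ctsd: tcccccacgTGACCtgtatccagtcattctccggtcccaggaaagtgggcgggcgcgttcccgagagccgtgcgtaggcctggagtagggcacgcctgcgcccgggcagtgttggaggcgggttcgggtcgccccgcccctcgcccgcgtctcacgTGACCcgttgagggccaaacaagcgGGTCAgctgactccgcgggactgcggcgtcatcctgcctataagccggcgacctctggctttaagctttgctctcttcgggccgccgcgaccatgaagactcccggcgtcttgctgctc
It held 3 half-sites, at bases 10 to 14 and 157 to 161 (TGACC) and at bases 182 to 186 (GGTCA). The first and second share 2 bases each with an E-box (CACGTG), the element bound by MYC and by the lysosomal regulator TFEB, at bases 6 to 11 and 153 to 158. E-boxes, the same on both strands, were in 7.15% of all promoters. The GC box GGGCGG, read on both strands, occurred 2 times in the Ctsd window, 5 times in the Cxcl12 window and in 35.7% of all promoters.

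Ctsd had 2155.1, 2159.3, 2069.7, 2416.2 and 2403.0 units in E+P glands and 2489.5, 2368.8, 2231.2 and 2370.7 units in E glands. It had 2761.6, 2874.8, 1109.0 and 2558.6 units in P glands and 2234.1, 2935.6, 3163.7 and 2569.9 units in V glands. The E and E+P glands were tightly grouped, V glands reached higher, and the third P gland was below every other animal. The E minus V difference was -0.19 ± 0.21 (limma adjusted p 0.769), with an interval from -0.63 to 0.25, so the largest rise inside it is 1.19-fold. E+P minus P was 0.038 ± 0.20 with all animals (adjusted p 0.967) and -0.29 ± 0.12 without the third P gland (adjusted p 0.392). P minus V was -0.31 ± 0.21 with all animals (adjusted p 0.758) and 0.014 ± 0.13 without it (adjusted p 0.986). Of 16 other lysosomal proteins 14 were tested, and 0 passed in any of the 7 hormone comparisons. Their median was -0.15 in E minus V and -0.15 in E+P minus V.

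Other estrogen receptor targets were read from a list of 40 genes, of which 36 were on the arrays and 25 were tested. Pgr and Areg, both on the list, were not among the 25. In E minus V 1 of 25 passed, Krt19, a luminal keratin that also stands on the list of luminal markers. Krt19 ranged over 1260 to 2679 units with a median of 1716 in E glands, against 673 to 916 units with a median of 775 in V glands, without overlap. Its log2 difference was 1.19 ± 0.21 (limma adjusted p 0.0186), and its estrogen main effect was 1.02 ± 0.15 (adjusted p 0.00230). In E+P minus V and in E+P minus E 1 of 25 passed, and it was Ltf, encoding lactoferrin, an iron-binding secreted protein. Ltf ranged over 191 to 366 units in E+P glands, 594 to 1099 units in E glands, 297 to 530 units in P glands and 632 to 1111 units in V glands. The difference was -1.58 ± 0.24 in E+P minus V (adjusted p 0.00414) and -1.46 ± 0.24 in E+P minus E (adjusted p 0.0165), beside -0.12 ± 0.26 in E minus V (adjusted p 0.901). The median of the 25, read on 1 probe set each, was 0.18 in E minus V. The -0.15 of the 11 member probe sets counts Cxcl12 4 times and Ccnd1 3 times, so these medians are of unlike units. Of the 12 estrogen receptors and cofactors, 6 were tested and 0 passed in the 7 hormone comparisons. The estrogen receptor gene Esr1 was not among the 6, so nothing is said of its response.

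The comparison of E+P glands with E+P CFP pads asks which signals go with the epithelium. In it 3 of 11 member probe sets passed, all higher in the intact glands, where 7.9% of all probe sets passed and 5.23% were higher. The same 3 did not overlap between the groups, as for 8.36% of all probe sets in that direction. Intact glands and fat pads differed across the whole array: 1206 probe sets were higher and 617 lower, or 827 and 1226 with arrays scaled to a common median, where the median of all differences was -0.12 in place of 0.014. The fat pads met their label. Summed signal of 10 luminal markers was 4733 to 7587 units in E+P glands, against 84.6 to 115 units in E+P CFP pads, where Krt8, Krt19, Krt7, Epcam, Cldn7 and Elf5 were at the floor in all 3. Skeletal muscle markers ran the other way, at 677 to 1548 units in E+P glands and 4654 to 7726 units in E+P CFP pads, and mitosis markers were at 819 to 2073 units in E+P glands and 276 to 347 units in E+P CFP pads. Of 9 luminal markers 9 were higher in E+P glands, of 7 mitosis markers 6 were higher, and of 6 muscle markers 6 were lower. Of 8 adipocyte markers 6 were lower in E+P glands, with summed signals of 17679 to 24296 units there and 31381 to 35783 units in E+P CFP pads, and of 5 basal epithelial markers 3 were higher. Their part in the differences of the members was not tested.

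The brightest Ccnd1 probe set had 237.4 to 584.0 units in the 5 E+P glands, against 116.9, 146.1 and 126.2 units in E+P CFP pads. Every pad lay below every intact gland of any treatment, the lowest of which had 235.8 units. The share of all probe sets that do so was not counted. The log2 difference was 1.59 ± 0.22, a fold of 3.01 (95% interval 2.20 to 4.11), with a limma adjusted p of 4.47e-05. The other Ccnd1 probe sets were also higher in E+P glands, by 0.95 ± 0.49 (adjusted p 0.284) and 1.33 ± 0.70 (adjusted p 0.296). Of 13 cyclin D pathway genes tested, 4 were higher in E+P glands and 2 lower; Cdk4, Cdk6, Ccna2 and Rbl1 were the 4 and Ccnd2 and Cdkn2c the 2, named after their values were seen. Ccnd2, a second D cyclin, was at -1.41 ± 0.38 (adjusted p 0.0238), and Cdk4, the kinase that D cyclins activate, at 0.82 ± 0.17 (adjusted p 0.00295).

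Myc had 61.1 to 155.5 units in E+P glands, against 15.8, 22.9 and 30.4 units in E+P CFP pads. The pads again lay below all 17 intact glands, the lowest of which had 34.4 units, a separation not counted over all probe sets. The difference was 2.14 ± 0.34, a fold of 4.41 (95% interval 2.70 to 7.22), with a limma adjusted p of 0.000266. All 3 pads were under the filter level of 61.6 units and close to the floor of 13.6 units, and with an offset of 50 units in place of the floor the log2 difference was 1.04. It passed in 9 of 9 other settings, with a highest adjusted p of 0.00807. In the MYC network 5 of 18 genes were higher and 1 lower, the 5 being Npm1, Mxi1, Mycl, Ncl and Fbl and the 1 being Ldha, named after their values were seen. Npm1 and Ncl, which encode nucleolar proteins, were higher by 0.89 ± 0.19 (adjusted p 0.00517) and 0.70 ± 0.20 (adjusted p 0.0305).

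The brighter Stc2 probe set had 166.5 to 428.3 units in E+P glands, against 118.1, 119.5 and 83.3 units in E+P CFP pads, without overlap. The difference was 1.34 ± 0.32, a fold of 2.53 (95% interval 1.58 to 4.04), with a limma adjusted p of 0.0118. Without the third pad, the lowest, it was 1.17 ± 0.37 and the adjusted p was 0.0690. The dimmer probe set had 53.6 to 121.7 units in E+P glands and 16.3, 13.8 and 78.4 units in the pads, a difference of 0.98 ± 0.55 (adjusted p 0.339).

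Ctsd had the opposite order. Its signal was 2069.7 to 2416.2 units in E+P glands, against 4284.4, 3491.7 and 3065.7 units in E+P CFP pads, without overlap, as for 6.47% of all probe sets lower in the glands. The difference was -0.68 ± 0.22 (limma adjusted p 0.0631), and without the third P gland, which enters through the pooled spread, it was -0.68 ± 0.12 (adjusted p 0.000919). It also passed with arrays scaled to a common median (-0.91, adjusted p 0.0121) and with only the groups compared in the fit (adjusted p 0.00831). Of 14 lysosomal proteins, 3 were lower in E+P glands and 1 higher; Ctsb, Npc2 and Ctsl were the 3 and Ctsh the 1, named after their values were seen. Cathepsin L (Ctsl) was at -0.97 ± 0.27 (adjusted p 0.0292). Cxcl12 differences were negative on 4 of 4 probe sets, between -0.60 and -0.16, with 0 called and a lowest adjusted p of 0.139. The one with the lowest p passed with median scaling (-0.83, adjusted p 0.0446). Greb1 had 29.2 to 126.3 units in E+P glands, a range that holds the 106.9, 67.5 and 81.1 units of the pads. Among the groups, Greb1 had its highest mean log2 signal in the pads, at 6.39.

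**Figure D4:**
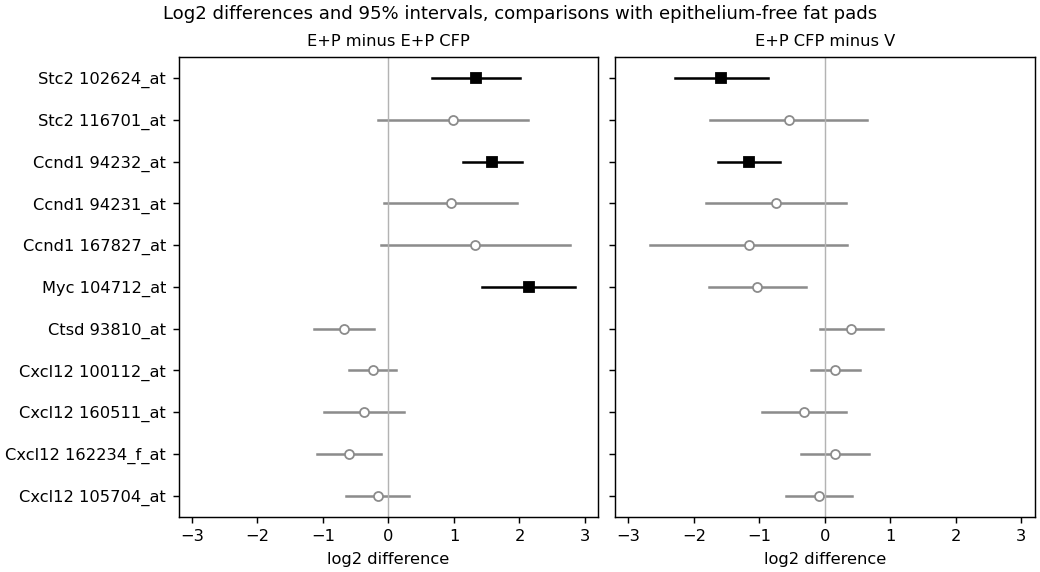
Log2 differences (horizontal axis) with 95% intervals for the 11 tested probe sets (rows) in E+P minus E+P CFP and in E+P CFP minus V. Filled squares passed the threshold of 0.05 on the adjusted p and open circles did not. Squares on the right in the first panel are Myc and the brightest probe sets of Ccnd1 and Stc2, and those of Ccnd1 and Stc2 are squares on the left in the second.

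**Figure D5:**
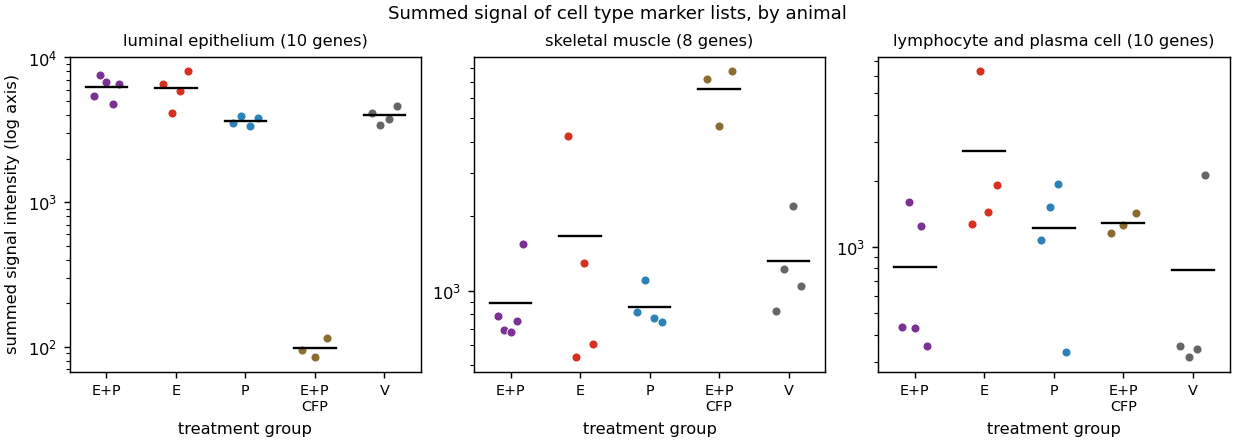
Each point is the summed signal intensity (vertical axis, logarithmic, own range per panel) of a marker list in 1 animal of the groups E+P, E, P, E+P CFP and V (horizontal axis), and bars are group means of the sums. Luminal markers are between 84.6 and 115 units in the 3 E+P CFP pads, muscle markers are highest there, and lymphocyte markers reach 6292 units in 1 E gland.

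E+P CFP pads and V glands differ in tissue and in treatment, which cannot be told apart. In this comparison 2 of 11 member probe sets passed, both lower in the pads, where 3.07% of all probe sets passed and 2.38% were lower. The brightest Ccnd1 probe set was at -1.16 ± 0.23 (limma adjusted p 0.00402) and the brighter Stc2 probe set at -1.58 ± 0.34 (adjusted p 0.00898). Without the fourth V gland, the first E gland and the first pad together, they were at -0.94 (adjusted p 0.104) and -1.45 (adjusted p 0.0832). Without the third pad alone, Stc2 was at -1.41 (adjusted p 0.0562). Myc was at -1.03 ± 0.36 (adjusted p 0.149), and its groups did not overlap, as for 7.32% of all probe sets lower in the pads. With the floor raised to the 40th percentile it was at -0.34. In the fit with no filter on dim probe sets, Greb1 was at 0.92 ± 0.41 (limma adjusted p 0.408), with an interval from 0.052 to 1.79.

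Of 6 tested receptor and cofactor genes, 2 were higher in E+P glands than in E+P CFP pads and 1 was lower, named here after their values were seen. Foxa1, a pioneer factor for the receptor, was at 458 to 647 units in E+P glands and at the floor in all 3 pads, and so at least 40.2-fold higher (limma adjusted p 4.33e-12). Gata3, a luminal transcription factor, was higher by 4.60 ± 0.28 on the log2 scale (adjusted p 2.28e-10), and Kat2b, an acetyltransferase cofactor, was at -0.65 ± 0.14 (adjusted p 0.00381). Of the 25 other estrogen receptor targets, 9 were higher in E+P glands and 1 lower, with a median of 0.40 beside 0.014 over all. The median of the 11 member probe sets, which count some genes more than once, was 0.95.

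The genes whose log2 signals most resembled each member over 20 animals were named by Pearson's r among 10896 genes, as a description. For Ccnd1 they were Esrp1, an epithelial splicing factor, at 0.91, Ptprf at 0.91 and Atpif1 at 0.90, and over the 17 intact glands alone the same 3 were at 0.77, 0.78 and 0.76. For Myc they were Mcm4, a subunit of the replicative helicase, at 0.88, BC064078 at 0.88 and Fkbp11 at 0.87, and at 0.78, 0.75 and 0.86 over intact glands. For Stc2 they were Enho at 0.90, Prr14 at 0.89 and Aqp5, a water channel, at 0.89, and at 0.81, 0.90 and 0.82 over intact glands. For Ctsd they were Tmem120a at 0.90, Ssc5d at 0.89 and Pex16 at 0.88, which became 0.83, 0.76 and 0.80 without the third P gland. For Cxcl12 they were Vegfa at 0.73, Cpd at 0.72 and Hspbap1 at 0.72. The points share the treatment groups, and the 3 pads lie apart for Ccnd1, Myc and Stc2. The genes named for Stc2 and Ctsd were read on another array type of the same group and number. So were BC064078 for Myc and Hspbap1 for Cxcl12.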

How the data were processed

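Per the labels' protocols, biotin-labelled target was prepared from 2 µg of Ultraspec-extracted RNA. The authors deposited linear signal intensity per probe set, which the submitters' processing notes tie to MAS5; no version is given in the sources used here. Groups follow titles and treatment protocols, because the description field names progesterone for vehicle samples too. Arrays with 1 group and number were joined as 1 animal; titles call them biologic replicates.

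Within an array type, arrays were scaled to equal 2% trimmed means, floored at the 25th percentile (13.6, 28.6 and 19.8 units for A, B and C) and log2-transformed. Probe sets above the 50th percentile in at least 3 animals were tested, without 198 controls. limma 3.58.1 under R 4.3.3 fitted 5 group means with an intensity trend, and Benjamini-Hochberg adjustment ran over all tested probe sets. The number of arrays limits precision. The fit was tested on simulated data.

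A gene outside the 6 was read on 1 probe set, preferring array type A, then B, then no suffix, then brightness. Each list could name up to 3 genes past the threshold, by adjusted p in E minus V, E+P minus V or the estrogen main effect; names chosen otherwise are marked. Members, lists and tests were chosen with earlier results of these data known. Alternatives were quantile and median scaling, a higher floor, an offset, no filter, no trend, only the groups compared, a replicate block and leaving animals out.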

Additional observations from a re-analysis of the deposited data

Results flagged for a closer look

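Of 48 group checks on the 12 member probe sets, 4 found 1 animal whose gap to its nearest neighbour was a large share of its group's range. The checks used floored log2 signals, and chance fails them in about 1 of 20 groups where no animal is at the floor. Ctsd was 1109 units in the third P gland, against 2558.6 to 2874.8 units in the other 3. The dimmer Stc2 probe set, on another array type, was at 151 units in the P gland of the same number, against 13.6 to 16.3 units in the other 3. It was at 74.9 units in the first E gland, against 11.1 to 33.3 units. For this probe set 3 of 4 P glands and 2 of 4 E glands were at or under the floor. They were set equal, which narrowed the range, so the rate of 1 in 20 does not hold for these flags. A second Ccnd1 probe set on array type A was at 26.7 units in the fourth E+P gland, against 73.4 to 100.1 units in the other 4.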

How the results depend on the processing

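Of 2871 values from 29 other settings, 2839 kept their direction, or moved across 0 by less than 1 SE, and kept their side of the threshold. In E minus V the count of members called was 1 with the replicate block (the brighter Stc2 probe set, 1.28, limma adjusted p 0.0238) and 0 to 1 when 1 animal was left out. In E+P minus E it was 0 with no filter on dim probe sets, with no intensity trend, with only the groups compared, with the replicate block (the same probe set, -1.36, adjusted p 0.0505) and without the 3 animals together, and 0 to 1 when 1 animal was left out. Stc2 then had adjusted p of 0.140, 0.0770, 0.0714, 0.0505 and 0.130. In E+P minus E+P CFP it was 5 with median scaling, which added Ctsd (-0.91, adjusted p 0.0121) and another Cxcl12 probe set (-0.83, adjusted p 0.0446), 4 with the replicate block, which added the same Cxcl12 probe set (-0.73, adjusted p 0.0306), 4 with only the groups compared, which added Ctsd (adjusted p 0.00831), and 2 to 4 when 1 animal was left out. In E+P CFP minus V it was 0 without the 3 animals together and 1 to 2 when 1 was left out. The removal of the 3 animals together was added after the data were seen. When 1 animal was left out, Ctsd ranged from -0.44 to 0.014 in P minus V, from -0.29 to 0.17 in E+P minus P and from -0.094 to 0.36 in the interaction, and it changed sign in each without the third P gland. The first Cxcl12 probe set turned to -0.030 in E+P CFP minus V without the 3 animals. Causes were not tested. The labels do not say whether replicate numbers pair the animals. Deviations of same-numbered animals correlated above 0.1 in 10, 2 and 0 of 36 pairs on the 3 array types. Animals with different numbers were not compared, so this check cannot decide whether a number marks a shared batch. Counts over all probe sets ranged from 11 to 145 in E minus V, 0 to 4 in P minus V, 32 to 147 in E+P minus V, 19 to 123 in E+P minus P, 2 to 50 in E+P minus E, 83 to 236 for the estrogen main effect, 10 to 48 for the interaction, 1057 to 2053 in E+P minus E+P CFP and 356 to 774 in E+P CFP minus V. Dim probe sets (Greb1 and the dimmer one of Stc2) carry wide intervals.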
